A study of Mus musculus with 12 samples.

Results

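The genes described here are 10 regulators and receptors of the melanocyte lineage: the transcription factor genes Mitf, Tfe3, Tfeb, Sox10, Sox9 and Pax3, the receptor genes Kit, Ednrb and Mc1r, and the channel gene Trpm1. They were chosen by name, with earlier results of these data known, as were the gene lists below. Shares over all probe sets or genes are therefore context for the counts and not a test. Every probe set that the array annotation pairs with one of the members alone was taken. This gave 24 probe sets of 45037 that were not controls, and 10 genes of 18193, with no member left without a probe set. The cells were B16-OVA, a mouse melanoma line that expresses the model antigen ovalbumin, cultured for 24 h or 72 h with 100 nM GDC-0623, a small molecule inhibitor of the kinase MEK (MEKi), or with its solvent DMSO at the same concentration. Each of the 4 groups, 24h DMSO, 24h GDC-0623, 72h DMSO and 72h GDC-0623, had 3 arrays, 1 per RNA sample, and all cells came from this 1 line. Replicates are called biological without any statement that each was its own culture, and the p-values therefore reflect only how far these samples scatter, which could be a technical spread. In RNA of whole cultures, fewer cells expressing a gene and less RNA per cell cannot be told apart.

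MITF is the transcription factor that commits neural crest cells to the melanocyte fate and keeps pigment cells differentiated. SOX10 and PAX3 switch its gene on, and so does CREB downstream of cAMP when the melanocortin receptor MC1R is engaged. KIT and the endothelin receptor EDNRB signal through ERK, which phosphorylates MITF, promoting both its activity and its turnover. TFE3 and TFEB are close relatives of MITF that bind similar DNA sites and drive lysosomal genes when nutrients are short. SOX9 is active earlier in the neural crest and in several non-pigment lineages, and TRPM1 is a cation channel whose gene is a direct MITF target.

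The unit throughout is the log2 RMA signal, a background-corrected and normalized brightness of a probe set on a log2 scale, so that a difference of 1 is a doubling. A difference was called where its adjusted p in the limma test, taken over all probe sets, was under 0.05. The array median was 5.31 to 5.42, and arrays of a group correlated at r = 0.9957 to 0.9983 (a correlation across probe sets, not across replicates). With 3 arrays per group, precision is set by that number. The drug check moved in both comparisons, since the ERK target Dusp6 was lower with MEKi by a log2 difference of -1.41 ± 0.17 (SE, n = 3 per group) at 24 h and -1.29 ± 0.12 at 72 h. The other check genes, the ERK targets Spry4 and Etv5, moved less at 72 h. In fits without 1 array, Spry4 differed by -2.2 to -1.99 at 24 h. At 72 h it differed by -0.673 to -0.423, called in 1 of 6 such fits and in 5 of 7 other settings. Etv5 differed by -4.658 to -3.728 at 24 h and by -1.403 to -1.168 at 72 h. For both genes the change of the effect was called in 12 of 12 fits without 1 array. With DMSO alone both were lower at 72 h than at 24 h, called in 6 of 6 such fits. Spry4 differed there by -1.83 to -1.58 and Etv5 by -3.718 to -3.483. The MEKi differences of these genes were therefore measured from unlike DMSO levels at 24 h and 72 h. The 5 melanocyte markers Pmel, Mlana, Tyrp1, Dct and Tyr had mean signals at the 99.2 to 100.0 percentiles of all probe sets, and 19 markers of other cell types lay between the 4.5 and 79.4 percentiles. Signal ranks do not compare transcript amounts between genes.

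MEKi changed few of these genes, and mainly upward. At 24 h, 7 of the 24 probe sets were higher and none was lower, against 3.83% higher and 4.61% lower among all probe sets tested. They belonged to Trpm1 (4), Mitf (2) and Sox9 (1). At 72 h, 6 were higher (4 of Trpm1, 1 of Sox9 and 1 of Tfe3) and 1 of Mc1r was lower, against 2.99% and 4.25% of all. Counted by the brightest probe set of each gene, 3 of 10 genes were called at either time (Mitf, Sox9 and Trpm1, then Tfe3, Sox9 and Trpm1), all of them higher. Among all genes 5.01% were higher and 5.86% lower at 24 h, and 4.03% and 5.14% at 72 h. The median difference over the 10 genes was 0.09 at 24 h and 0.085 at 72 h, and over all genes 0.01 at both times. Sox10, Pax3, Kit, Ednrb and Tfeb gave no call with MEKi at either time.

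**Figure D1:**
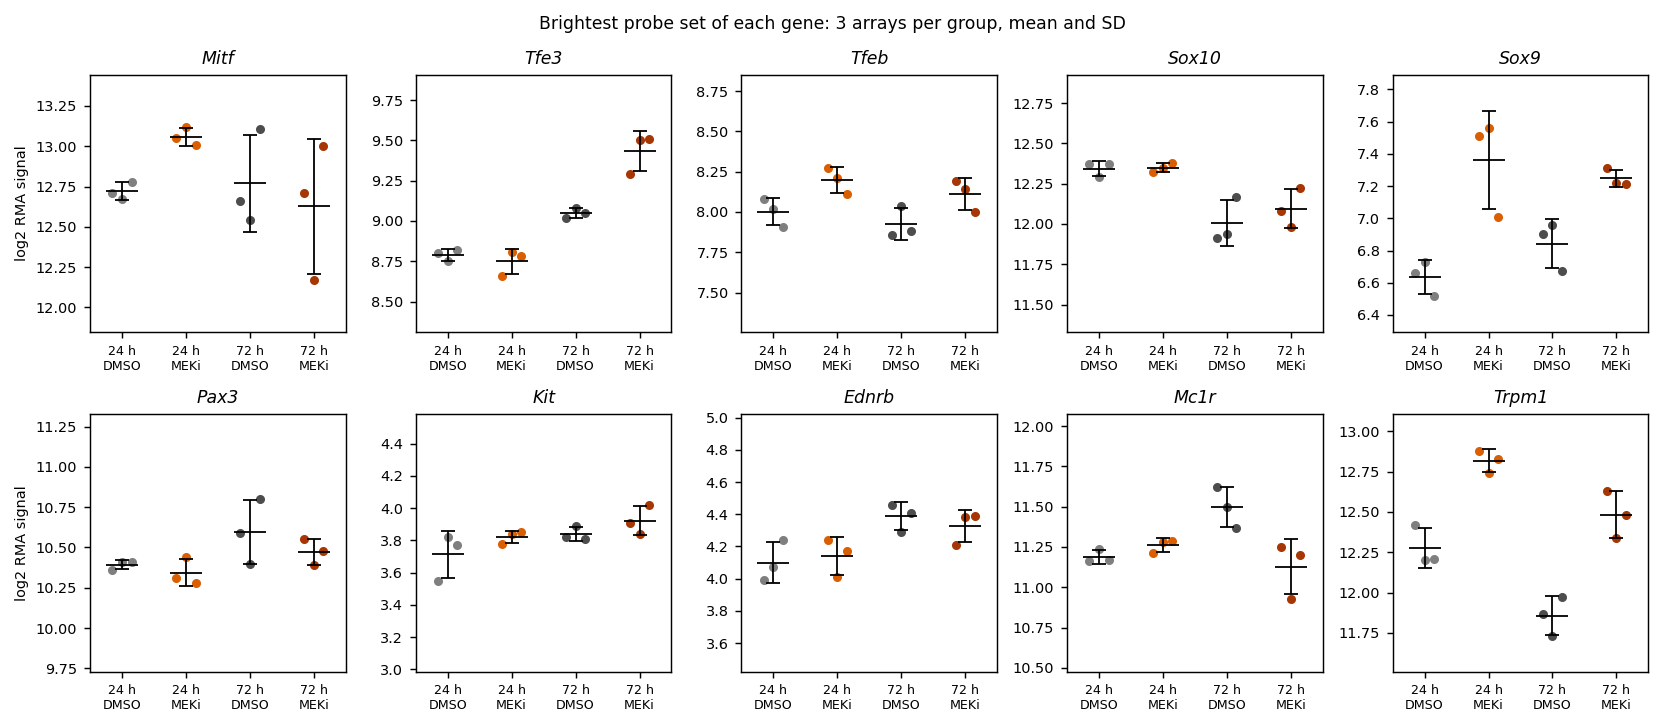
Log2 RMA signal (vertical axis) of the brightest probe set of each of the 10 genes in the 4 groups (horizontal axis), with 3 arrays per group as points and the mean and SD as bars. Each panel has its own axis range. Trpm1, Mitf and Sox9 were higher with MEKi at 24 h, and Trpm1, Sox9 and Tfe3 at 72 h.

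**Figure D2:**
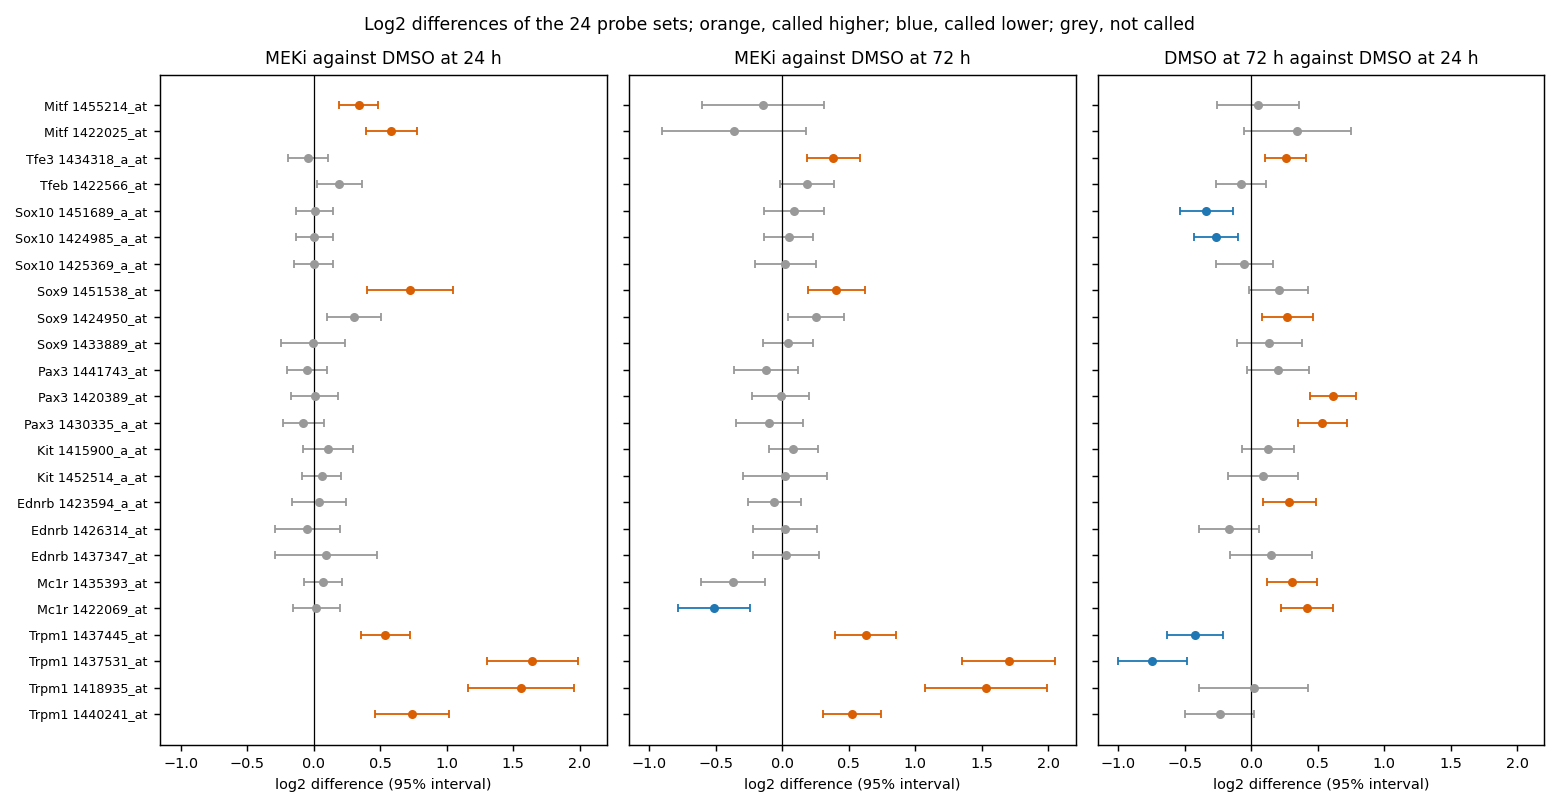
Log2 difference with its 95% interval (horizontal axis) for each of the 24 probe sets (vertical axis) in 3 comparisons, from limma with 3 arrays per group. Orange marks probe sets called higher, blue those called lower and grey those not called; the 4 Trpm1 probe sets were called higher with MEKi at both times.

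Mitf was measured by 2 probe sets, and both were higher with MEKi at 24 h and neither at 72 h. For the brighter one (1455214_at) the 24 h DMSO arrays read 12.71, 12.67 and 12.78 and the 24 h MEKi arrays 13.05, 13.12 and 13.01. Every treated array lay above every control, and the difference was 0.34 ± 0.06 (SE; adjusted p = 0.0174), a 1.27-fold rise. At 72 h it read 12.66, 12.54 and 13.11 with DMSO and 12.71, 12.17 and 13 with MEKi, so that the groups overlapped and the spread within each exceeded their difference of -0.14 ± 0.21 (adjusted p = 0.775).

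The dimmer Mitf probe set (1422025_at) had 24 h signals of 8.73, 8.89 and 8.81 with DMSO and of 9.47, 9.47 and 9.24 with MEKi, again without overlap. Its difference was 0.58 ± 0.08 (adjusted p = 0.00688), or 1.5-fold. After 72 h the DMSO arrays read 9.0, 8.84 and 9.63 and the MEKi arrays 8.74, 8.36 and 9.28. These groups overlapped, with a difference of -0.36 ± 0.24 (adjusted p = 0.461). Arrays of the same replicate number deviated together within a time, and within each of the 72 h pairs the MEKi array was the lower one, by differences of -0.26, -0.48 and -0.35. With the replicate number as a block the 72 h difference of this probe set was called lower (adjusted p = 0.0384). That of 1455214_at, whose pairs differed by 0.05, -0.37 and -0.11, was not. The block assumes that equal numbers belong together, which the sample labels do not state.

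The change of the MEKi effect between the times was tested on all 12 arrays. For 1422025_at the effect at 72 h was smaller than that at 24 h by a difference of -0.95 ± 0.30 (adjusted p = 0.111), which was not called, but was with the replicate block (adjusted p = 0.00416). For 1455214_at it was -0.48 ± 0.25 (adjusted p = 0.371). Fitted with all 12 arrays sharing 1 estimate of the spread, the 24 h rise was not called for either Mitf probe set (adjusted p = 0.302 and 0.118). The call for 1455214_at also ended without DMSO replicate 1 or 2 or MEKi replicate 1 or 2 (adjusted p = 0.065 to 0.0729).

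**Figure D3:**
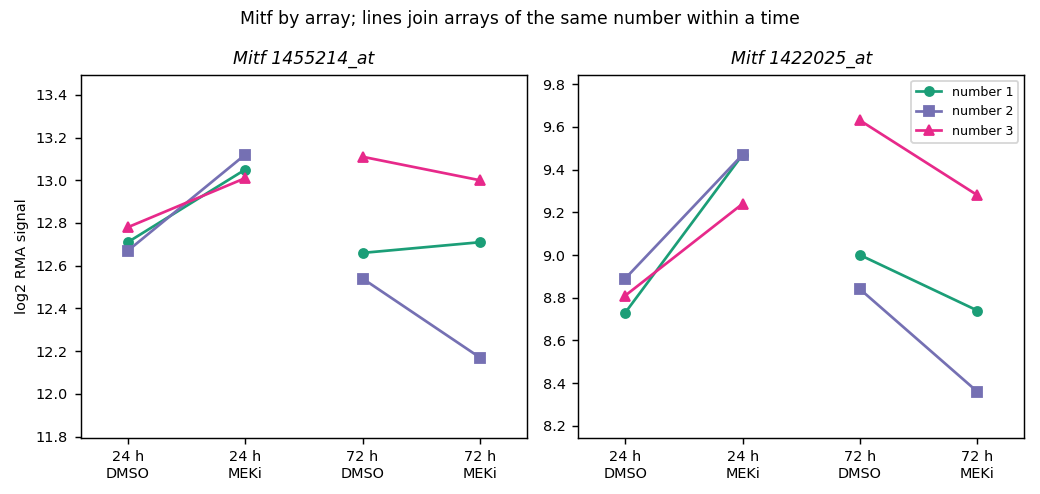
Log2 RMA signal (vertical axis) of the 2 Mitf probe sets in the 4 groups (horizontal axis), 1 point per array, with lines joining the DMSO and MEKi arrays of the same number within a time. All 3 lines rise at 24 h in both panels; at 72 h all 3 fall for 1422025_at and 2 of 3 fall for 1455214_at.

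The RefSeq table for GRCm38.p6 lists 3 promoters for Mitf, each a window of 250 bases before to 50 after a transcription start. The one whose start lies farthest along the gene, at chr6:97991533-97991832 on the plus strand, is shown because it is the only one of the 3 that holds the full cAMP response element TGACGTCA, the site through which CREB reads the cAMP signal from MC1R. The element reads the same on both strands, is in capitals, and begins 153 bases before the start. It occurs in 1.79% of all 32851 promoter windows. A match is a run of letters, not evidence of binding, and the probe sets were not assigned to a promoter.
Mitf promoter: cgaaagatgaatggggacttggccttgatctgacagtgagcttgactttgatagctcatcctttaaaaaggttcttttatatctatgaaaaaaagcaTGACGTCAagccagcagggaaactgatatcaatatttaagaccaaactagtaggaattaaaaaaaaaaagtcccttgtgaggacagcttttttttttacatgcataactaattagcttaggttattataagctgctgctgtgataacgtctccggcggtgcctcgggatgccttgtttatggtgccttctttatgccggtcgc

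Tfe3 and Tfeb, the relatives of Mitf that respond to nutrients, each had 1 probe set. Tfe3 (1434318_a_at) did not differ detectably at 24 h, with DMSO arrays at 8.80, 8.75 and 8.82 and MEKi arrays at 8.66, 8.81 and 8.78 (-0.04 ± 0.07; adjusted p = 0.781). By 72 h it read 9.02, 9.08 and 9.05 with DMSO and 9.29, 9.50 and 9.51 with MEKi, a 1.30-fold rise (0.38 ± 0.09; adjusted p = 0.0298) with all treated arrays above all controls. Tfe3 was the only one of the 24 probe sets whose MEKi effect was called different between the times (0.42 ± 0.11; adjusted p = 0.0493) and higher, against 1.36% higher and 1.66% lower of all probe sets. That call ended with the replicate block (adjusted p = 0.0575), with centred arrays (0.0506) and with quantile normalization again (0.0534). Of the fits that left out 1 array, 1 of 12 kept the call of the difference, and 1 of 6, without MEKi replicate 1, kept that at 72 h (adjusted p up to 0.132 and 0.13).

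Tfeb (1422566_at) read 8.08, 8.02 and 7.91 with DMSO at 24 h and 8.27, 8.21 and 8.11 with MEKi. The groups did not overlap, but the difference of 0.19 ± 0.07 (adjusted p = 0.153; 95% interval 0.03 to 0.36) was not called. At 72 h its signals were 7.86, 8.04 and 7.88 with DMSO and 8.19, 8.14 and 8.00 with MEKi (0.18 ± 0.09; adjusted p = 0.302), and here the ranges overlapped. Within the same-numbered pairs the MEKi array was higher in 3 of 3 at each time, by 0.19 to 0.20 at 24 h and by 0.10 to 0.33 at 72 h, but the replicate block gave no call either (adjusted p = 0.113 and 0.27). The order of the group means ran from 72h DMSO through 24h DMSO and 72h GDC-0623 to 24h GDC-0623, with the ranges of each neighbouring pair overlapping.

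Sox10 and Pax3, the factors that switch on Mitf, showed no called difference with MEKi in any of their probe sets. The brightest Sox10 probe set (1451689_a_at) read 12.37, 12.29 and 12.37 with DMSO and 12.32, 12.35 and 12.38 with MEKi at 24 h, and 11.91, 11.94 and 12.17 against 12.08, 11.98 and 12.22 at 72 h. Its MEKi differences were 0.01 ± 0.06 (95% interval -0.13 to 0.14) and 0.09 ± 0.10 (-0.14 to 0.31). The intervals of the other Sox10 probe sets, 1424985_a_at and 1425369_a_at, reached no farther than 0.25 in size. With DMSO over time, 1451689_a_at was lower at 72 h than at 24 h by -0.34 ± 0.09 (adjusted p = 0.0214) and 1424985_a_at by -0.26 ± 0.07 (adjusted p = 0.0276), while 1425369_a_at differed by -0.05 (adjusted p = 0.725).

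Pax3 went the other way over time. Its brightest probe set (1441743_at) had DMSO signals of 10.36, 10.41 and 10.41 at 24 h and of 10.59, 10.40 and 10.80 at 72 h (0.20 ± 0.10; adjusted p = 0.185), and the ranges overlapped. For 1420389_at the same arrays read 10.01, 10.00 and 9.91, then 10.54, 10.54 and 10.69, a 1.53-fold rise (0.62 ± 0.08; adjusted p = 0.00066). For 1430335_a_at they read 9.66, 9.65 and 9.66, then 10.09, 10.15 and 10.33 (0.53 ± 0.08; adjusted p = 0.0018). The groups did not overlap in either of these, and both calls held in every alternative setting and without any 1 array. The Pax3 differences with MEKi lay between -0.12 and 0.01 in the 3 probe sets at both times, and MEKi arrays at 72 h stood with the DMSO arrays of that time, at 10.61, 10.42 and 10.70 for 1420389_at.

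Sox9, the neural crest factor, was higher with MEKi in the brightest of its 3 probe sets. At 24 h, 1451538_at read 6.66, 6.73 and 6.52 with DMSO and 7.51, 7.56 and 7.01 with MEKi, which is 1.65-fold (0.72 ± 0.14; adjusted p = 0.0192). At 72 h the values were 6.90, 6.96 and 6.67 with DMSO and 7.31, 7.22 and 7.21 with MEKi, or 1.32-fold (0.40 ± 0.10; adjusted p = 0.034). Treated arrays lay above the controls at both times, and the change of the effect between times was not called (-0.32 ± 0.18; adjusted p = 0.431).

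The other Sox9 probe sets did not reach a call with MEKi. For 1424950_at the differences were 0.30 ± 0.09 (adjusted p = 0.0786) and 0.25 ± 0.10 (adjusted p = 0.16), with no overlap at either time. For 1433889_at they were 0.00 ± 0.11 and 0.04 ± 0.09, with overlap at both. The 24 h call of 1451538_at ended without any DMSO replicate or without MEKi replicate 1 or 2 (adjusted p up to 0.0804), and the 72 h call without DMSO replicate 1 or 3 or any MEKi replicate (up to 0.124), with all 12 arrays in 1 fit (adjusted p = 0.0556) and as the mean of the 3 probe sets (adjusted p = 0.0647).

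Mc1r, the melanocortin receptor that raises cAMP, was the one member called lower with MEKi. At 72 h, 1422069_at read 9.74, 9.65 and 9.48 with DMSO and 9.34, 8.89 and 9.10 with MEKi, a 1.43-fold fall (-0.51 ± 0.12; adjusted p = 0.0338). The brighter 1435393_at read 11.62, 11.50 and 11.37, then 11.25, 10.93 and 11.20 (-0.37 ± 0.11; adjusted p = 0.0737). Its treated arrays too lay below all controls, but the call was missed, and it was made in 5 of 8 other settings. In all 3 same-numbered pairs and both probe sets the MEKi array was the lower one, by -0.17 to -0.76.

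At 24 h Mc1r did not differ detectably between the treatments. The DMSO and MEKi arrays read 9.20, 9.16 and 9.25 against 9.08, 9.28 and 9.31 in 1422069_at (0.02 ± 0.08; adjusted p = 0.918), and 11.16, 11.24 and 11.17 against 11.21, 11.28 and 11.29 in 1435393_at (0.07 ± 0.06; adjusted p = 0.561). With DMSO alone both rose from 24 h to 72 h, by 0.42 ± 0.09 (adjusted p = 0.00691) and 0.31 ± 0.08 (adjusted p = 0.0256). The order of the means in both probe sets was 72h GDC-0623, 24h DMSO, 24h GDC-0623 and 72h DMSO, and the 72h DMSO arrays alone stood apart from their neighbour. The changes of the MEKi effect between times, -0.53 ± 0.15 and -0.44 ± 0.13, were not called (adjusted p = 0.0834 and 0.0864). The 72 h call of 1422069_at ended without DMSO replicate 1 or 2 or MEKi replicate 2 or 3 (adjusted p up to 0.13).

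Kit, the receptor for stem cell factor, and Ednrb, the endothelin receptor of melanoblasts, were dim on these arrays. The 2 Kit probe sets ranged from 3.15 to 4.02 and the 3 Ednrb probe sets from 3.44 to 4.46 over all 12 arrays, with mean signals at or below the 31.7 percentile of all probe sets. Detection calls were not used here, so the values do not say whether these transcripts were above background. Their MEKi differences lay between -0.06 and 0.11, with overlapping arrays throughout. Ednrb 1423594_a_at was higher at 72 h than at 24 h with DMSO (0.29 ± 0.09; adjusted p = 0.0433), which ended with the arrays centred on their median (0.22; adjusted p = 0.109), and the other Ednrb probe sets differed by -0.17 and 0.15 without a call.

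Trpm1, the channel gene under MITF control, was the one gene called higher with MEKi in all of its several probe sets at both times. Its 4 probe sets were called higher at 24 h and at 72 h, without any 1 array, and in each alternative setting that included them (1440241_at is too dim for the fit of brighter probe sets). For the brightest (1437445_at) the 24 h arrays read 12.42, 12.20 and 12.21 with DMSO and 12.88, 12.74 and 12.83 with MEKi, a 1.45-fold rise (0.54 ± 0.08; adjusted p = 0.00778). The 72 h arrays read 11.87, 11.73 and 11.97 with DMSO and 12.63, 12.34 and 12.48 with MEKi, a 1.54-fold rise (0.63 ± 0.10; adjusted p = 0.00668).

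In 2 of the dimmer Trpm1 probe sets the differences lay between 1.53 and 1.70. In 1437531_at the signal went from 8.36, 8.19 and 8.10 to 9.96, 10.12 and 9.50 at 24 h, which is 3.12-fold (1.64 ± 0.15; adjusted p = 0.0017), and from 7.53, 7.25 and 7.64 to 9.54, 8.97 and 9.01 at 72 h, which is 3.25-fold (1.70 ± 0.16; adjusted p = 0.000671). In 1418935_at it went from 7.71, 7.62 and 7.37 to 9.25, 9.42 and 8.71 at 24 h (1.56 ± 0.17; adjusted p = 0.00328) and from 7.78, 7.13 and 7.85 to 9.49, 8.84 and 9.02 at 72 h (1.53 ± 0.21; adjusted p = 0.00283). In both probe sets and at both times the lowest treated array was above the highest control, although MEKi replicate 3 at 24 h was the lowest of its group in each. The dimmest, 1440241_at, rose by 0.74 ± 0.12 (adjusted p = 0.0112) and 0.52 ± 0.10 (adjusted p = 0.0118). The 4 probe sets thus gave folds from 1.45 to 3.12 at 24 h and from 1.44 to 3.25 at 72 h, and which parts of the transcript they read is not given in the sources used here.

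The Trpm1 effect did not change detectably between the times. The differences between the 72 h and 24 h effects were 0.09 ± 0.13, 0.06 ± 0.24, -0.03 ± 0.30 and -0.21 ± 0.16 in the order above, with adjusted p from 0.603 to 0.98. Over time with DMSO, 1437445_at fell by 0.42 ± 0.09 on the log2 scale (adjusted p = 0.011) and 1437531_at by 0.74 ± 0.11 (adjusted p = 0.00184). The 1418935_at signal gave no called difference (0.02 ± 0.18; adjusted p = 0.951).

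**Figure D4:**
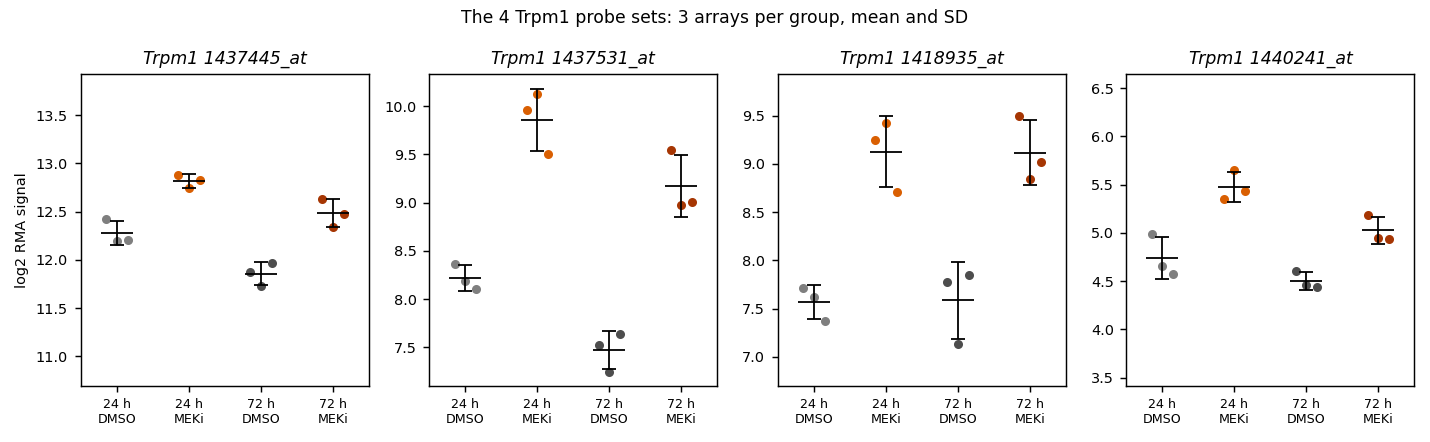
Log2 RMA signal (vertical axis, the same span in each panel) of the 4 Trpm1 probe sets in the 4 groups (horizontal axis), with 3 arrays per group as points and the mean and SD as bars. In each panel the MEKi arrays lie above the DMSO arrays of the same time; the mean differences run from 0.52 to 1.70.

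The promoters of Trpm1 and Mc1r are shown because they hold the E-box CATGTG, which MITF and its relatives bind. Trpm1 was called higher with MEKi at both times, and Mc1r was called lower only at 72 h and in 1 of its 2 probe sets. RefSeq (GRCm38.p6) lists 2 Trpm1 promoters, at chr7:64153585-64153884 and chr7:64185209-64185508, and 1 for Mc1r, at chr8:123406832-123407131, all on the plus strand. Capitals mark CATGTG or its reverse complement CACATG, the longer TCATGTG that contains it and is known as the M-box core, and the palindrome CACGTG. In the first Trpm1 window TCATGTG begins 142 bases before the start. The second holds CACGTG 229 bases before the start and CACATG at base 37 after it. Mc1r has CACATG 62 and TCATGTG 52 bases before its start.
Trpm1 promoter 1: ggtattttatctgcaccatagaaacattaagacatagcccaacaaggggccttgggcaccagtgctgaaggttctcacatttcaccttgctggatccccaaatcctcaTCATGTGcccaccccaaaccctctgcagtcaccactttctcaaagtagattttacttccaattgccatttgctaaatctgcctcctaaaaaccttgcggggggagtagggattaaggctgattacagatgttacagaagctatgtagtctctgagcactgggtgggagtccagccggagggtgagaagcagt
Trpm1 promoter 2: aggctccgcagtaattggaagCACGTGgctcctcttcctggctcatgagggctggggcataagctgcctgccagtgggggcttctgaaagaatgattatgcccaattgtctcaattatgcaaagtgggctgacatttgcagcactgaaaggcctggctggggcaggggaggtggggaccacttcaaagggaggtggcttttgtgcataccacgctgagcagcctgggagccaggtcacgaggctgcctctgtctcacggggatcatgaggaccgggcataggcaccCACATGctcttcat
Mc1r promoter: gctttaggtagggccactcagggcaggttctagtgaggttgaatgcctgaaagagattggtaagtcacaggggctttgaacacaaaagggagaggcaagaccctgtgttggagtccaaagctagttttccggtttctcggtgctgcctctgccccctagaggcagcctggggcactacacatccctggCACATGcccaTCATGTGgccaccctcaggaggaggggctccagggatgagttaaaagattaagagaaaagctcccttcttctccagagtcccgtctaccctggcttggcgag

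On either strand CATGTG occurred in 14.2% of all promoter windows, TCATGTG in 3.77% and CACGTG in 7.15%. Of the 10 genes, 7 matched the table with 14 windows, of which 3 held CATGTG, 2 TCATGTG and 1 CACGTG. The windows of Kit, Ednrb, Tfeb and Tfe3 held none of these letters, and Sox10, Sox9 and Pax3 were not matched.

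With DMSO at 72 h against 24 h, 7 of the 24 probe sets were higher and 4 lower, against 11.3% and 14.3% of all. The higher ones were of Pax3 (2), Mc1r (2), Tfe3 (1), Sox9 (1) and Ednrb (1), and the lower ones of Sox10 (2) and Trpm1 (2). Tfe3 rose by 0.26 ± 0.07 (adjusted p = 0.0217) and Sox9 1424950_at by 0.27 ± 0.09 (adjusted p = 0.0436). Both of these calls, and that of Mc1r 1435393_at, ended with the arrays centred on their median (adjusted p = 0.0659, 0.114 and 0.0725). Leaving out 1 array ended the calls of Sox9 in 6 of 6 fits, of Mc1r 1435393_at and Sox10 1424985_a_at in 5, of Sox10 1451689_a_at and Ednrb in 4, and of Tfe3 in 3, those without a 24h DMSO replicate. The calls of Pax3, Mc1r 1422069_at and Trpm1 held without any 1 array.

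This comparison shares its arrays with the MEKi comparisons of each time, so a low or high DMSO array enters more than 1 of them. For the control transcript Dap, the gap between its 3' and 5' probe sets was 1.96 to 2.16 on the 24 h arrays and 1.34 to 1.47 on the 72 h arrays. For the control transcript Phe, the gap at 24 h was 1.24 to 1.32 with DMSO and 1.39 to 1.59 with MEKi, without overlap. At 72 h the Phe gap was 1.28 to 1.33 with DMSO and 1.23 to 1.43 with MEKi. Of the 19 markers of other cell types, 8 were called higher with DMSO at 72 h than at 24 h, against 11.3% of all probe sets. Each marker was read by the brightest probe set of its gene, and the share over genes was not computed for this comparison. The summed linear signal of all 19 was 1022 to 1059 on the 24h DMSO arrays and 1428 to 1518 on the 72h DMSO arrays. At 24 h the sum was 1142 to 1265 with MEKi, and Mbp, a myelin gene, and Lyz2, a myeloid gene, were called higher. The 8 markers called higher over time were Ptprc, Lyz2 and Csf1r of leukocytes, Pdgfrb of fibroblasts, Kdr of endothelium, and Mbp, Gfap and Tubb3 of Schwann cells or neurons, with differences from 0.25 (Ptprc) to 0.80 (Pdgfrb). The part of these measures in the results above was not tested.

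MITF target genes, taken from a list of 26 of which 24 were measured, gave 7 genes higher and 1 lower with MEKi at 24 h, and the median difference was 0.16 against 0.01 over all genes. Among all genes 5.01% were higher and 5.86% lower at 24 h. The ion transporter genes Slc24a4 (1.21 ± 0.10; adjusted p = 0.00146) and Oca2 (0.98 ± 0.10; adjusted p = 0.00285) and the melanosomal receptor gene Gpr143 (0.85 ± 0.09; adjusted p = 0.00283) rose most. The survival gene Bcl2 fell by 0.41 ± 0.07 on the log2 scale. At 72 h only Oca2 (0.69 ± 0.14; adjusted p = 0.0141) and Gpnmb, a melanosomal glycoprotein gene (0.33 ± 0.08; adjusted p = 0.0323), were higher, and none was lower. Of all genes 4.03% were higher and 5.14% lower at that time. The effect at 72 h was called smaller than that at 24 h for Slc24a4 (-1.37 ± 0.28), the mitochondrial coactivator gene Ppargc1a (-1.06 ± 0.25) and the cell cycle kinase gene Cdk2 (-0.51 ± 0.12), with adjusted p from 0.0195 to 0.0363, against 1.97% higher and 2.1% lower among all genes.

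These counts moved with the fit. With a trended and robust prior 16 targets were higher and 4 lower at 24 h, and among the brighter probe sets 13 and 4. Without DMSO replicate 2 or 3 or MEKi replicate 1 or 2 the higher count was 3 or 4. With the replicate block or the trended and robust prior it was 4 at 72 h, without MEKi replicate 1 it was 0, and without DMSO replicate 1 or 2 or MEKi replicate 2 it was 1. The calls of Slc24a4, Oca2 and Gpr143 at 24 h held without any 1 array, and that of Oca2 at 72 h in 5 of 6 such fits. Leaving out 1 array gave 0 to 4 genes with a smaller effect at 72 h, with 0 or 1 in 8 of the 12 fits, and the call of this change held in 9 of 12 for Slc24a4, 4 for Ppargc1a and 3 for Cdk2.

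Lysosomal genes of the CLEAR network, the set that TFEB, TFE3 and MITF can bind, were higher with MEKi in 11 of 20 cases at 24 h and in 7 at 72 h, with none lower. Among all genes 5.01% were higher and 5.86% lower at 24 h, and 4.03% and 5.14% at 72 h. The median difference over the list was 0.27 at 24 h and 0.20 at 72 h, against 0.01 over all genes at both times. Neu1, a sialidase gene (0.59 ± 0.06; adjusted p = 0.00231), the lysosomal calcium channel gene Mcoln1 (0.47 ± 0.09; adjusted p = 0.0159) and Psap, which encodes the saposin precursor (0.45 ± 0.08; adjusted p = 0.0166), had the largest called rises at 24 h. At 72 h these were Gla, the alpha-galactosidase gene (0.86 ± 0.10; adjusted p = 0.00183), Mcoln1 (0.80 ± 0.08; adjusted p = 0.000883) and the protease gene Ctsb (0.68 ± 0.09; adjusted p = 0.00303). Leaving out 1 array gave 2 to 13 higher genes at 24 h, with 2 to 4 without any DMSO replicate or without MEKi replicate 1 or 2, and 4 to 7 at 72 h, with 4 without MEKi replicate 2.

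**Figure D5:**
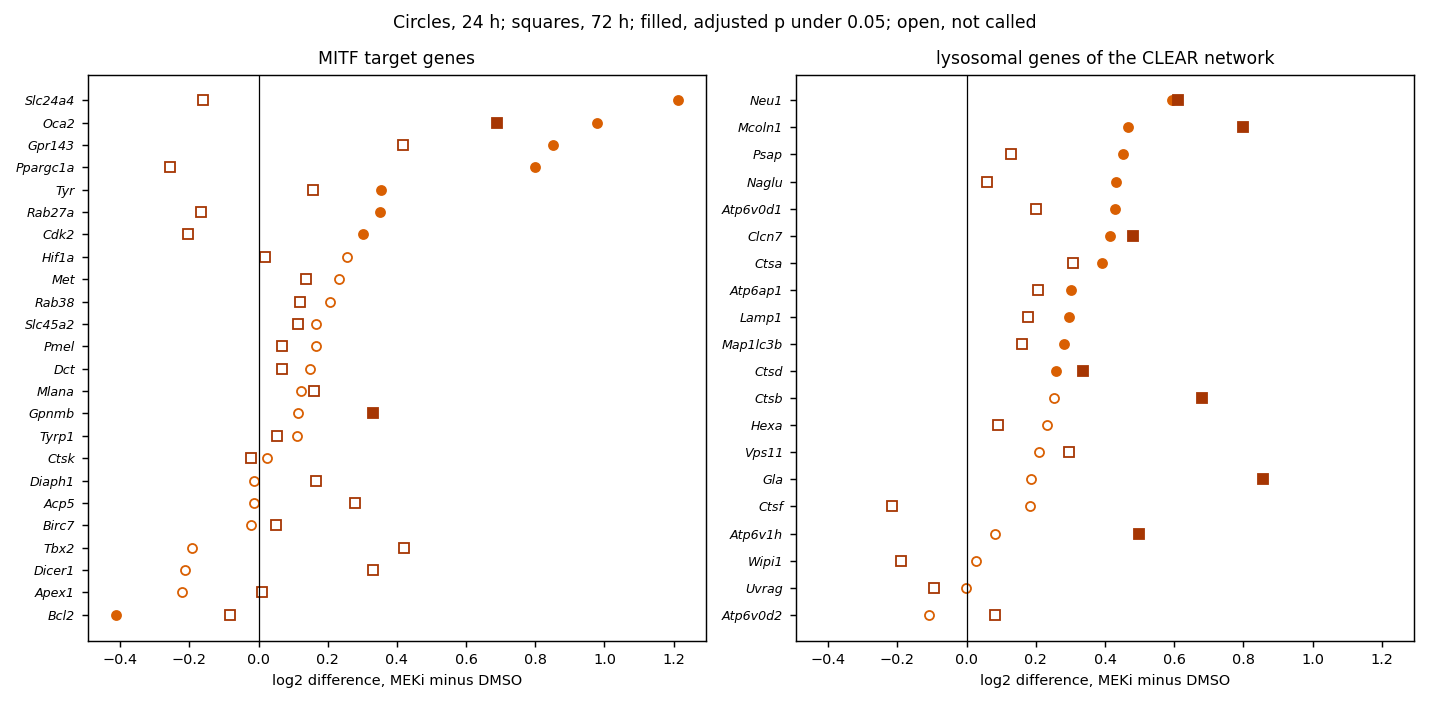
Log2 difference of MEKi minus DMSO (horizontal axis) for each measured gene (vertical axis) of the MITF target list (24 genes) and the CLEAR lysosomal list (20 genes). Circles are 24 h and squares 72 h, and filled symbols were called. At 24 h 7 MITF targets were higher and 1 lower, and 11 lysosomal genes were higher. Among all genes 5.01% were higher and 5.86% lower at 24 h.

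Of 15 genes of the nutrient pathway that holds TFEB and TFE3 in the cytoplasm, none was called at 72 h. At 24 h 3 were higher, where 5.01% of all genes were. These were Rragd (0.47 ± 0.07; adjusted p = 0.00686) and Rraga (0.36 ± 0.08; adjusted p = 0.0311), which encode Rag GTPases, and the Ragulator subunit gene Lamtor4 (0.28 ± 0.06; adjusted p = 0.0212). The rise of Rragd was called smaller at 72 h than at 24 h (-0.52 ± 0.12; adjusted p = 0.0345). That call held in 3 of the 12 fits without 1 array (adjusted p up to 0.0941). At 24 h Rragd kept its call without any 1 array, and Rraga and Lamtor4 in 2 and 1 of 6 such fits.

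The lists of inputs to Mitf gave few calls, in both directions. Of 24 genes of MC1R and cAMP signalling, 2 were higher and 2 lower at 24 h, where 5.01% of all genes were higher and 5.86% lower, so nothing is read from the count. Among them were the phosphodiesterase gene Pde4d (0.46 ± 0.08; adjusted p = 0.0129) and the adenylyl cyclase genes Adcy2 (0.40 ± 0.08; adjusted p = 0.0246) and Adcy3 (-0.30 ± 0.07; adjusted p = 0.029). At 72 h, where 4.03% of all genes were higher and 5.14% lower, 2 were higher and 3 lower, led by Pde4b (-0.62 ± 0.12; adjusted p = 0.0124), Creb1, the gene of CREB itself (-0.56 ± 0.12; adjusted p = 0.0192), and the CREB-related gene Crem (0.51 ± 0.10; adjusted p = 0.0117). Of these 6 genes none kept its call without every 1 array in turn. The WNT list of 11 genes had 1 higher at 24 h, Axin2, a feedback target of beta-catenin (0.63 ± 0.10; adjusted p = 0.0086), 1 lower, Tcf7l1 (-0.29 ± 0.06; adjusted p = 0.0267), and none called at 72 h. Of 6 ligand and converting enzyme genes of the KIT and endothelin systems, only the endothelin-converting enzyme gene Ece2 was called, at 24 h (-0.49 ± 0.10; adjusted p = 0.0249). The receptor gene Ednra of this list had no probe set paired with it alone and was not measured. Without 1 array Axin2 kept its call in 6 of 6 fits, and Tcf7l1 and Ece2 in 1 each (adjusted p up to 0.103 and 0.0956).

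Other transcription factors of the neural crest and melanoblast, 25 genes, gave 1 higher and 1 lower at 24 h, a share below that of all genes (5.01% higher and 5.86% lower). Id2, an inhibitor of basic helix-loop-helix factors, was the higher (0.32 ± 0.06; adjusted p = 0.0154) and Hes1, a Notch effector gene, the lower (-0.83 ± 0.10; adjusted p = 0.00415). At 72 h, Bhlhe40 (-0.62 ± 0.12; adjusted p = 0.0158), Sox5 (-0.60 ± 0.11; adjusted p = 0.00943) and Tfap2a, a neural crest factor gene (-0.46 ± 0.09; adjusted p = 0.0152), were lower, and Bhlhe41 was higher (0.54 ± 0.10; adjusted p = 0.0132). At that time 4.03% of all genes were higher and 5.14% lower. Hes1 and Sox5 kept their calls in 6 of 6 fits without 1 array, Bhlhe40 in 4, Tfap2a and Bhlhe41 in 3 and Id2 in 2. Of 12 genes of dedifferentiated melanoma, 3 were lower and none higher at 24 h, where 5.86% of all genes were lower and 5.01% higher. The 3 were Ccn2 (-0.53 ± 0.06; adjusted p = 0.00424), Axl, a receptor kinase gene (-0.42 ± 0.08; adjusted p = 0.0178), and Ccn1 (-0.40 ± 0.09; adjusted p = 0.0359). At 72 h Ccn2 alone was lower (-0.90 ± 0.13; adjusted p = 0.00449), against 5.14% of all genes. Leaving out 1 array gave 1 or 2 lower genes at 24 h, with Ccn2 called in 6 of 6 fits at each time, Axl in 2 and Ccn1 in 1, and array weights or a trended and robust prior gave 2 higher genes beside the 3 lower. Of 13 ERK output genes, 11 were lower with MEKi at 24 h, and 7 were lower and 1 higher at 72 h. Of all genes 5.86% were lower at 24 h, and 5.14% were lower and 4.03% higher at 72 h. With DMSO alone, 9 of these 13 were lower and 1 higher at 72 h than at 24 h. Of all probe sets, not genes, 14.3% were lower and 11.3% higher in that comparison, where the share over genes was not computed.

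The genes whose pattern over the 12 arrays was most like that of a member were found by the root mean square difference of log2 signals, each centred on its own mean, among 10850 genes. For Mitf they were Adgb, Pde4d and Lyrm9, at 0.137 to 0.145, where the Mitf signal itself varied by 0.268 about its mean. Trpm1 was matched most closely by Eogt (0.095), Slco3a1 (0.127) and Taf9b (0.137), against its own 0.361. For Sox9 they were Sc5d, Tnip1 and Elovl7 (0.123 to 0.132, against 0.329). Tfe3 lay closest to the proteasome genes Psmc2 and Psmc5 and to Flywch1 (0.072 to 0.078, against 0.28). These are likenesses over arrays of 4 groups that share treatments and times, and carry no test.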

How the data were processed

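RNA of 12 B16-OVA samples was measured on Affymetrix mouse whole-genome expression arrays. From 200 ng of RNA per sample, the authors made labelled target with a 3' IVT kit, and they applied RMA; the version and the annotation build are not given in the sources used here. The deposited values are log2 signals with 2 decimals, from 2.21 to 14.47, and were used as they stood. Groups came from the sample labels. Of 45101 probe sets, 64 controls were left out, and 34945 of the rest were paired with 1 gene, 932 with several and 9160 with none. Where a gene had several probe sets, the one with the highest mean stood for it in counts of genes.

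Each comparison was a two-sided limma fit (version 3.58.1, R 4.3.3) on its own 6 arrays, or all 12 for the change of the MEKi effect, with Benjamini-Hochberg adjustment over 45037 probe sets and a threshold of 0.05. Errors are moderated SEs. The fit was tested on simulated data. Of 50 changes of 1.5-fold it recovered 36 for MEKi at 24 h and 32 at 72 h. For the change of the MEKi effect it recovered 17, and for DMSO over time 28. Of 50 changes of 2-fold it recovered 46, 46, 42 and 45 in that order. A value that was not called can therefore hide a change of 1.5-fold. The members, the gene lists and the genes named from them (up to 3 called genes with the largest change per list and MEKi comparison, and all members) were chosen with earlier results of these data known. Bcl2, Tfap2a and the cell type markers are named outside that rule, after their values were seen. Alternatives were a replicate block, all 12 arrays in 1 fit, brighter probe sets only, centring, quantile normalization again, a trended and robust prior, array weights, the mean over probe sets, and leaving out each array.

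The replicate numbers were checked as pairs. Among probe sets brighter than the median, deviations from the group means were correlated between the treatments. Same-numbered arrays gave 0.207 to 0.283 at 24 h and 0.214 to 0.307 at 72 h. Different numbers gave -0.288 to 0.002, but deviations cancel out within a group, so these values are not independent of the former. The numbers were taken to pair arrays within a time. Over all probe sets same-numbered arrays gave 0.073 to 0.151 and 0.13 to 0.189. Across times DMSO arrays of the same number correlated at 0.01 to 0.06 and were not taken as pairs. Across times GDC-0623 arrays gave -0.015 to 0.202 with the same number and -0.252 to 0.188 with different numbers. Values near those within a time thus also arose between arrays not taken as pairs, and the pairing remains an assumption. Promoter sequences are those of RefSeq, GRCm38.p6.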

Additional observations from a re-analysis of the deposited data

Results flagged for a closer look

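The effect of MEKi on Tfe3 (1434318_a_at) differed between the times, by a log2 difference of 0.423 (adjusted p = 0.0493 in the limma contrast on 12 arrays). With MEKi it was higher than with DMSO in all 3 same-numbered pairs at 72 h (by 0.27, 0.42 and 0.46) and in 1 of 3 at 24 h (-0.14, 0.06 and -0.04). The adjusted p ranged from 0.0184 to 0.132 over the alternatives, and no explanation was tested.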

How the results depend on the processing

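No called value changed sign under any alternative. At 24 h the count of called member probe sets was 7, and 5 to 7 without 1 array. At 72 h it was also 7, and 4 to 6 without 1 array, with 4 without DMSO replicate 1 or MEKi replicate 2 or 3. For the change of the MEKi effect the count of 1 became 3 among brighter probe sets, 0 with the arrays centred on their median, 0 with quantile normalization again, 3 with a trended and robust prior, 4 with array weights and 0 to 2 without 1 array, and 1 gene became 2 with the mean over the probe sets of each gene. For DMSO over time the count of 11 became 7 with the arrays centred on their median and 5 to 10 without 1 array, with 5 to 6 without any 24h DMSO replicate and 6 without 72h DMSO replicate 1. The causes were not tested, apart from the fewer arrays of the last fits.

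With the replicate number as a block, 7 member probe sets were called at 24 h, 8 at 72 h and 1 in the change of the effect. The block gave 7 in place of 11 in DMSO over time, where the numbers did not pair the arrays. Beyond the calls given with the results, the block changed no call of a member in the MEKi comparisons.

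Over the values called under any setting, 369 alternatives kept the side of the threshold, 83 lost a call and 23 gained one. Values called under none numbered 16 at 24 h and 15 at 72 h. Of these 10 and 6 changed sign somewhere, with main sizes up to 0.09 and 0.14, so their direction is not established. The list counts under these settings were an alternative chosen after seeing the data. RMA values carry no background call, which limits what can be said of Kit, Ednrb and the dim probe sets of Sox9 and Trpm1.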
